A study of Mus musculus with 12 samples.

Results

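The 10 genes described here encode 6 chemokines (Ccl2, Ccl5, Ccl7, Cxcl1, Cxcl10 and Cxcl12) and 4 adhesion molecules of the vessel wall (Vcam1, Icam1, Selp and Sele). They were taken by name, under a rule that uses no measured value, as the inflammatory and homing signals by which endothelium draws leukocytes. All 10 were on the array, among 19505 named genes, and were read by 17 of the 41174 probes. RNA came from whole hearts and whole kidneys of FVB/N mice that either lacked mENT1 (knockout) or were wild type. mENT1, the product of Slc29a1, lets adenosine and other nucleosides cross the cell membrane. Each genotype was read in each tissue, which made 4 groups of 3 single-dye Agilent arrays. The labels name no treatment, age, allele or cell-type restriction of the deletion, and do not say whether the 3 samples of a group came from separate animals, so that p-values measure the spread between these samples, which may be technical.

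Chemokines are small secreted proteins that guide leukocytes along a gradient through receptors on the leukocyte surface. The endothelium acts in sequence: the selectins slow passing leukocytes, chemokines displayed on the vessel wall activate their integrins, and the integrins then hold on to Icam1 and Vcam1. In heart and kidney most of these genes are known to be induced by inflammatory cytokines in endothelial, stromal and immune cells, while Cxcl12 is made constitutively by stromal and endothelial cells.

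Levels below are log2 intensities relative to the 75th percentile of the same array, which is set to 0. A level belongs to one probe and cannot be set against that of another probe. Changes are differences of these levels with the standard error (SE) of a limma fit, and called means an adjusted p under 0.05 (Benjamini-Hochberg, over all genes tested). The 75th percentile itself ran from 451 to 878 intensity units, and between 59.9% and 70.0% of probes were well above background.

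Slc29a1 was lower on every knockout array than on every wild type array of its tissue, at 0.59 to 1.53 against 3.15 to 3.36 in heart and -1.43 to -1.30 against 1.27 to 1.62 in kidney. These genotypes are those of the scanner files. The authors' value table carries the opposite genotype on its columns, and under its labels the sign of every knockout change given here would be reversed. The tissue labels held: the median of 8 heart genes was between 6.14 and 6.85 in hearts and between -5.47 and -4.41 in kidneys, and that of 8 kidney genes between 5.93 and 6.44 in kidneys and between -8.81 and -6.65 in hearts. Knockout hearts a and b stood apart from the other 4 hearts. The median of 14 T cell markers was 2.25 and 3.12 on these arrays, against -1.41 in knockout heart c and -2.11 to -1.18 in wild type hearts. The median of 8 thymocyte markers was 2.13 and 2.30 on them and at most -6.60 on the other 4 heart arrays. Knockout heart a also carried lung markers at a median of 2.81, against -7.83 to -4.94 on the other heart arrays. Xist signal was present on knockout heart a and b and knockout kidney a and absent on the other 9 arrays. All 3 knockout hearts lay on 1 slide and all 3 wild type hearts on another, so that for heart the slide cannot be told apart from the genotype. The kidneys lay on 3 slides, of which 1 held knockout kidneys b and c and wild type kidneys a and b.

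**Figure D1:**
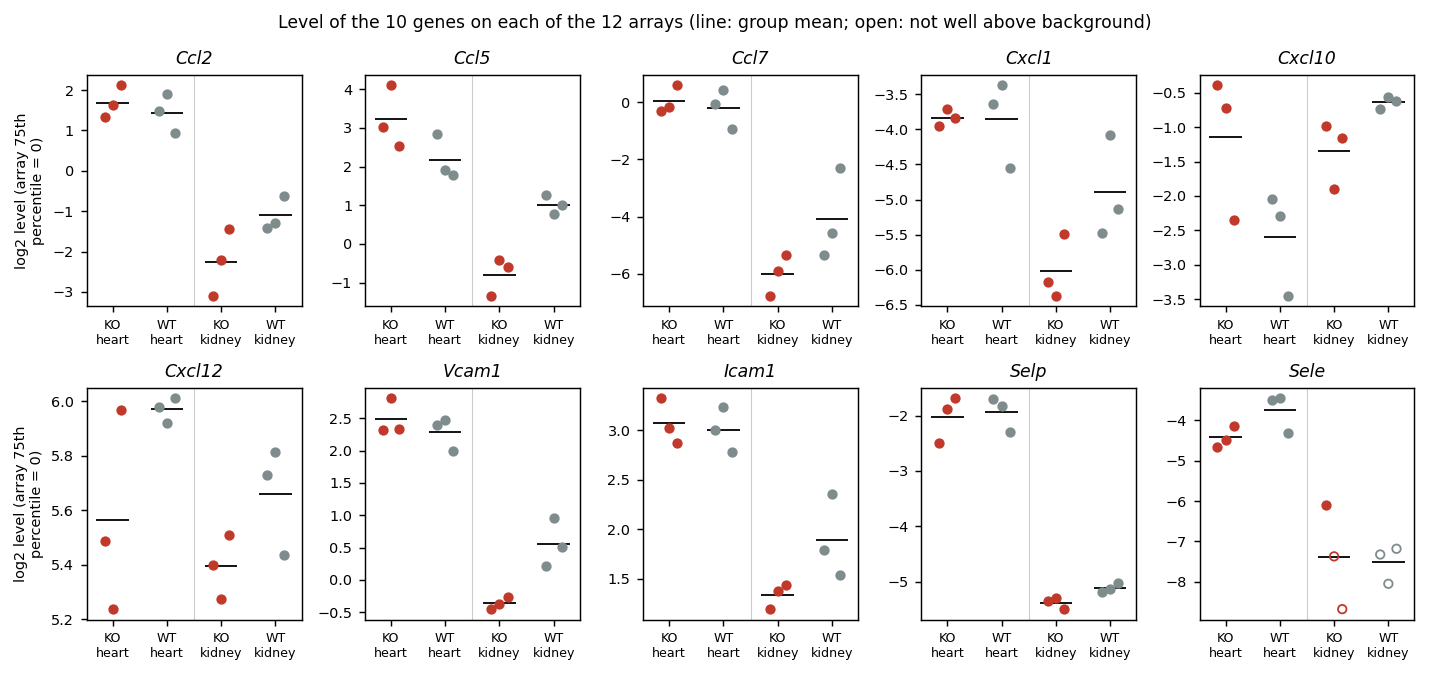
Each panel plots 1 gene on the 12 arrays, with the log2 level relative to the 75th percentile of the array on the vertical axis and the 4 groups (KO, knockout; WT, wild type) on the horizontal axis. Points are arrays, lines are group means, and open points were not well above background. Ccl5 lies between -1.34 and -0.42 in knockout kidneys and between 0.77 and 1.28 in wild type kidneys.

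In the kidney, all 9 genes tested had a lower mean in the knockout group, and for 7 of them every knockout array lay below every wild type array. Of all genes tested in kidney, 12.6% had their knockout arrays all below the wild type arrays and 8.77% all above, and 58.5% had a lower mean. None of the 9 was called, against 0.163% of all genes. At an unadjusted p under 0.05 there were 6 of the 9, and 2255 of 17165 genes. The median change of the 9 genes was -0.92, against -0.07 over all genes. Sele, the E-selectin that activated endothelium makes, was not tested in kidney, since it was well above background only on knockout kidney a (-6.10).

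Ccl5, a chemokine that T cells, NK cells and macrophages make, had the largest difference relative to its spread. Knockout kidneys a, b and c were at -1.34, -0.42 and -0.61 and wild type kidneys at 1.28, 0.77 and 1.0004. No knockout kidney came within 1 log2 unit of a wild type kidney. The mean was lower by 3.50-fold (-1.81 ± 0.28, 95% confidence interval -2.47 to -1.14), ranked 102 of 17165 genes by p, and the adjusted p of 0.0681 by limma just missed the threshold. The array held a second Ccl5 probe. The first 30 bases of both are shown because only the second passed the threshold.
Ccl5 brighter probe (A_52_P638459, mm7 chr11:83595699-83595758, minus strand): tctcagctgctccgaggctctgcacagcaa
Ccl5 second probe (A_51_P485312, mm7 chr11:83595850-83595905, minus strand): atcaactatttggagatgagctaggataga
The second probe was at -3.13, -2.78 and -2.90 in knockout kidneys and at -0.68, -0.91 and -1.02 in wild type kidneys. It was lower in knockout kidney by -2.06 ± 0.18 and was called when p was adjusted over all probes (adjusted p = 0.0233 by limma). The brighter probe itself was called in 5 of 19 distinct alternative settings of the analysis, with changes of -1.81 to -1.53 in those 5, and its adjusted p ran from 0.0347 to 0.703 over all 19. Among the 5 are the fit without knockout kidney a (-1.53, adjusted p = 0.0458) and that within the slide of both genotypes (-1.54, adjusted p = 0.0447).

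Vcam1, which binds the integrin chain Itga4 on lymphocytes and monocytes, followed. It was at -0.45, -0.37 and -0.26 in knockout kidneys and 0.22, 0.96 and 0.51 in wild type kidneys. The groups did not overlap and the knockout kidneys lay close together (SD 0.094, n = 3, against 0.372). The mean was lower by 1.90-fold (-0.92 ± 0.22, adjusted p = 0.149 by limma). A second probe about 15.7 kb away gave -1.03 ± 0.20 (adjusted p = 0.133 over probes, limma), again without overlap, and 1 more probe was not well above background on any of the 12 arrays. The first and second are shown because they fall on the same side in kidney and on opposite sides in heart.
Vcam1 brighter probe (A_51_P210956, mm7 chr3:115885211-115885270, minus strand): tatatttttataggcaaatggtaaagaggt
Vcam1 second probe (A_52_P520495, mm7 chr3:115900948-115901007, minus strand): aaccaagagtttggaagtaacctttactcc
Icam1, the counterpart of the leukocyte integrin of Itgal and Itgb2, was at 1.19, 1.37 and 1.44 in knockout kidneys and 1.79, 2.36 and 1.54 in wild type kidneys. The groups did not overlap, with a narrow gap between knockout kidney c and wild type kidney c (-0.56 ± 0.24, adjusted p = 0.383 by limma). The second Icam1 probe overlapped between the groups (-0.21 ± 0.25). Selp, the P-selectin of endothelium and platelets, was at -5.35, -5.30 and -5.50 in knockout kidneys and -5.18, -5.14 and -5.03 in wild type kidneys. This is the smallest mean difference among the 7, at -0.27 ± 0.15 with an interval of -0.62 to 0.09 that holds 0. The Icam1 interval, -1.13 to 0.004, also holds 0. Selp intensities before scaling overlapped, at 19.6, 17.9 and 14.0 in knockout kidneys and 19.1, 12.8 and 23.6 in wild type kidneys.

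Ccl2 and Ccl7 attract monocytes through Ccr2. Ccl2 was at -3.10, -2.20 and -1.45 in knockout kidneys and -1.41, -1.29 and -0.62 in wild type kidneys. The highest knockout array and the lowest wild type array nearly touched, and the mean was lower by 2.21-fold (-1.15 ± 0.43, adjusted p = 0.332 by limma). Ccl7 was at -6.77, -5.90 and -5.33 in knockout kidneys and -5.36, -4.58 and -2.30 in wild type kidneys, which overlapped by the width of knockout kidney c. Its mean difference was large and loose (-1.92 ± 0.79, adjusted p = 0.370 by limma). The second Ccl7 probe narrowly did not overlap, at -6.53, -5.89 and -5.40 in knockout kidneys and -5.36, -4.96 and -3.06 in wild type kidneys. Its difference was -1.47 ± 0.62 (adjusted p = 0.376 over probes, limma). The probes of Ccl2 and Ccl7 lie 9.85 kb apart on chromosome 11 in mm7, and Ccl7 follows Ccl2 directly among protein-coding genes of GRCm38.p6. On both, knockout kidney a was the lowest of the 6 kidneys and wild type kidney c the highest. In heart, wild type heart c was the lowest and knockout heart c the highest on both.

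Cxcl1, a neutrophil attractant, was at -6.17, -6.37 and -5.49 in knockout kidneys and -5.47, -4.08 and -5.14 in wild type kidneys. Wild type kidney b was the highest, and knockout kidney c and wild type kidney a were almost equal. The mean was lower by 2.16-fold (-1.11 ± 0.41, adjusted p = 0.317 by limma). Cxcl10, an interferon-induced ligand of Cxcr3 on activated T cells, was at -0.98, -1.90 and -1.15 in knockout kidneys and -0.74, -0.57 and -0.61 in wild type kidneys, without overlap (-0.71 ± 0.26, adjusted p = 0.320 by limma).

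Cxcl12, the ligand of Cxcr4, is read by 2 probes that the array annotation assigns to different transcript variants. The first 30 bases of each 60-base probe, as the scanner files hold them, are shown here and for Ccl5 and Vcam1, because a result depends on which probe is read. The exon or untranslated region that a probe lies in was not given in the sources used here.
Cxcl12 variant 2 (A_51_P172502, mm7 chr6:117207552-117207611, plus strand): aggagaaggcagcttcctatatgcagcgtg
Cxcl12 variant 1 (A_52_P685021, mm7 chr6:117200799-117200858, plus strand): gaattaatcataaacggaagtttaaatgag
The variant 2 probe overlapped, at 5.40, 5.27 and 5.51 in knockout kidneys against 5.73, 5.81 and 5.44 in wild type kidneys (-0.27 ± 0.17, adjusted p = 0.556 by limma). The variant 1 probe did not overlap, at -0.70, -0.76 and -0.73 in knockout kidneys against -0.37, -0.34 and -0.32 in wild type kidneys (-0.38 ± 0.14, adjusted p = 0.324 over probes, limma).

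**Figure D2:**
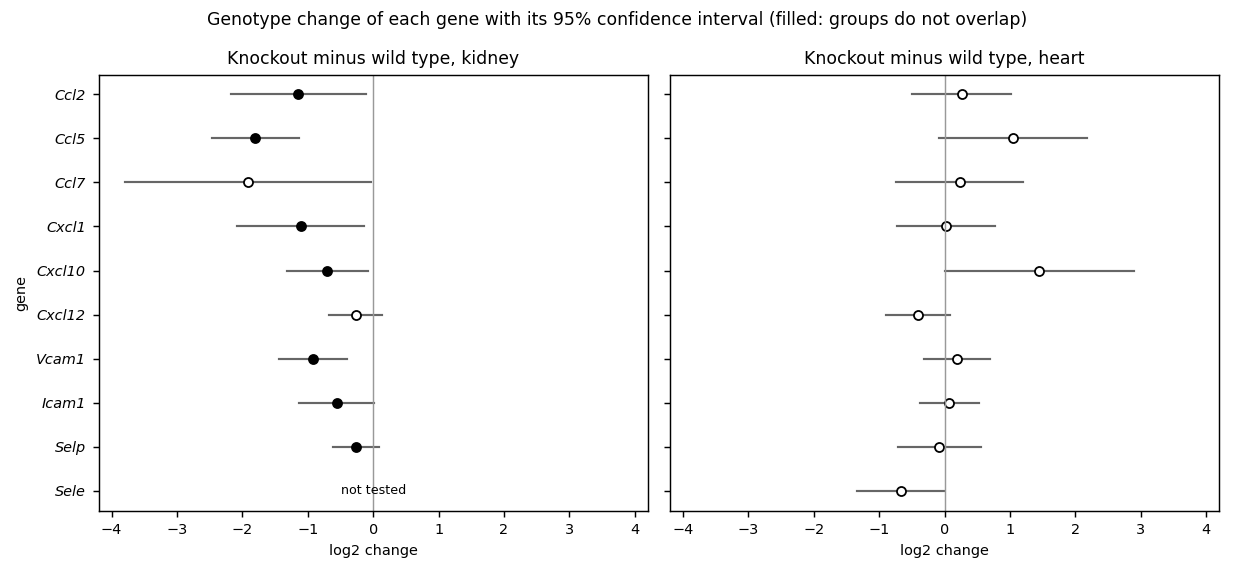
The horizontal axis gives the log2 change, knockout minus wild type, for each of the 10 genes in kidney (left) and heart (right), with its 95% confidence interval from limma. Filled points mark genes whose knockout and wild type arrays do not overlap. All 9 kidney points lie below 0, from -1.92 (Ccl7) to -0.27 (Cxcl12 and Selp), and 7 are filled, while no heart point is filled.

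The count of 7 was recomputed under alternatives chosen after the data were seen. It was 8 of 9 within the slide that held both genotypes (against 32.6% of all genes there, with 2 arrays a group) and 7 without knockout kidney a (against 23.2%). It was 5 with median scaling (against 6.62%) and 6 with quantile scaling (against 11.5%). With normexp background correction it was 4, against 9.36% of all genes, and the means of Ccl7 (0.13), Cxcl1 (0.55) and Selp (0.69) were then higher in knockout kidney.

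Promoters of the 7 genes without overlap in kidney were looked up in a RefSeq table (GRCm38.p6), which matched 4 of them. The 220 bases before the start are shown, 5′ to 3′ on the strand of the gene, because these 4 genes lay on the same side in kidney. Capitals mark matches, on either strand, to GGGNNNNNCC (an NF-kappaB type motif), GAAANNGAAA (an interferon response type motif) or TGANTCA (an AP-1 type motif). TATAAA was also searched and had no match in them.
Cxcl1 (chr5:90891025-90891244, plus strand): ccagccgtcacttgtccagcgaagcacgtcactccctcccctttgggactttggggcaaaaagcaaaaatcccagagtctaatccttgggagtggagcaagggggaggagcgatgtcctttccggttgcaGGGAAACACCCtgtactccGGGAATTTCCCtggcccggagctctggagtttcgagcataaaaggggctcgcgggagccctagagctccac
Cxcl10 (chr5:92348890-92349109, minus strand): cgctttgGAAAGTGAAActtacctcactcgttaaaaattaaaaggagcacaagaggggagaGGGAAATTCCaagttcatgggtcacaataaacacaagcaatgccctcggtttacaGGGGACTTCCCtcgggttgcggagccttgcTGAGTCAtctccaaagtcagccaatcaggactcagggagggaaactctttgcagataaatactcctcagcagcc
Icam1 (chr9:21015720-21015939, plus strand): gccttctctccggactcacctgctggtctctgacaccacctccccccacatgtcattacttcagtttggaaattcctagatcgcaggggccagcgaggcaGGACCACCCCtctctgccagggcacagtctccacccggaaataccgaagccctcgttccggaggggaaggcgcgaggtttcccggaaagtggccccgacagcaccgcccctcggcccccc
Selp (chr1:164115044-164115263, plus strand): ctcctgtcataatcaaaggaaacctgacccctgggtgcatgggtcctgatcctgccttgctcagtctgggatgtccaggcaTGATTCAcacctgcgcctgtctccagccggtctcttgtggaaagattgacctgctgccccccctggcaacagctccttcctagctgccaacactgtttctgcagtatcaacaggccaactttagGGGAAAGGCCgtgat
The NF-kappaB type motif occurred in the 250 bases before the start in all 4, and in 45.8% of the 32851 promoters of the table. It also occurred in Cxcl12 and Sele, the only other members that the table matched and neither of them among the 7. Cxcl1 held 4 overlapping or neighbouring matches, between 90 and 61 bases before the start, and Cxcl10 held 3 positions, between 159 and 94 bases before it. The interferon response type motif, found in 2.98% of promoters, occurred in Cxcl10 alone of the 4. The AP-1 type motif, found in 6.75%, occurred in Cxcl10 and Selp and also in Sele, and TATAAA occurs in 12.4% of promoters. These matches describe letters and not binding.

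Other genes of the system were read in kidney from lists. Of 22 other chemokines tested, 20 had a lower mean in knockout kidney (8 without overlap) and none was called. The smallest p belonged to Ccl12 (-1.04 ± 0.19, adjusted p = 0.103 by limma) and Ccl8 (-2.11 ± 0.46, adjusted p = 0.133 by limma), monocyte attractants of the Ccl2 family. Of 16 chemokine receptors 14 had a lower mean, among them Cxcr3, the Cxcl10 receptor (-1.25 ± 0.30), and none was called. Of 14 leukocyte partners 12 had a lower mean, led by Itgal (-1.13 ± 0.15, adjusted p = 0.0568 by limma) and Spn (-1.28 ± 0.24), and none was called. The 14 other endothelial adhesion molecules divided evenly, 7 higher and 7 lower, with a median of 0.07 and 0 called; Cd34 (-0.44 ± 0.14) and Esam (0.36 ± 0.14) had the smallest p. Of 15 upstream cytokines and regulators 12 had a lower mean, 10 without overlap, and Lta, which encodes lymphotoxin alpha, was called lower (-2.72 ± 0.30, adjusted p = 0.0468 by limma). That call was lost without knockout kidney b (adjusted p = 0.116), without any 1 of wild type kidneys a, b or c (0.184, 0.212 and 0.144), and with the letter as a block (0.0869), and the sign turned with normexp background correction (0.31). Lta was well above background on all 3 wild type kidneys and on no knockout kidney, so the size of its change rests on signal near background.

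Among leukocyte markers, those of macrophages, T cells and NK cells mostly had a lower mean in knockout kidney. Of 3 neutrophil markers and 3 B cell markers tested, 2 of each had a lower mean and 1 a higher mean, none without overlap. Their median changes were -0.01 and -0.33. Of 12 macrophage markers 10 had all knockout kidneys below all wild type kidneys, none called, with Fcgr1 (-1.24 ± 0.20) and Mrc1 (-1.16 ± 0.19) in front, while Csf1r was higher on average in knockout kidney (group means 1.57 against 1.203). The summed linear level of the 12 was 20.4 to 30.0 in knockout kidneys and 32.0 to 43.7 in wild type kidneys, and 11 or 12 of the genes were well above background on each kidney array. Of 13 T cell markers 11 had a lower mean, 7 without overlap, led by Thy1 (-0.73 ± 0.18) and Cd6 (-0.92 ± 0.25). Of 6 NK and cytotoxic cell markers 5 had a lower mean, led by Gzmb (-1.92 ± 0.45) and Nkg7 (-1.11 ± 0.40). The summed level of the NK and cytotoxic cell markers was 0.177 to 0.482 in knockout and 0.508 to 0.664 in wild type kidneys, without overlap. That of the T cell markers overlapped, at 15.3 to 22.6 in knockout and 17.9 to 20.5 in wild type kidneys. Endothelial markers were higher for 6 and lower for 4 of 10, with a median of 0.12. Of 8 stromal markers 6 had a lower mean, 4 without overlap, with Col1a1 (-1.30 ± 0.23) and Col3a1 (-1.10 ± 0.25) in front. The part of these cell types in the kidney differences of the chemokines and adhesion molecules was not tested.

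**Figure D3:**
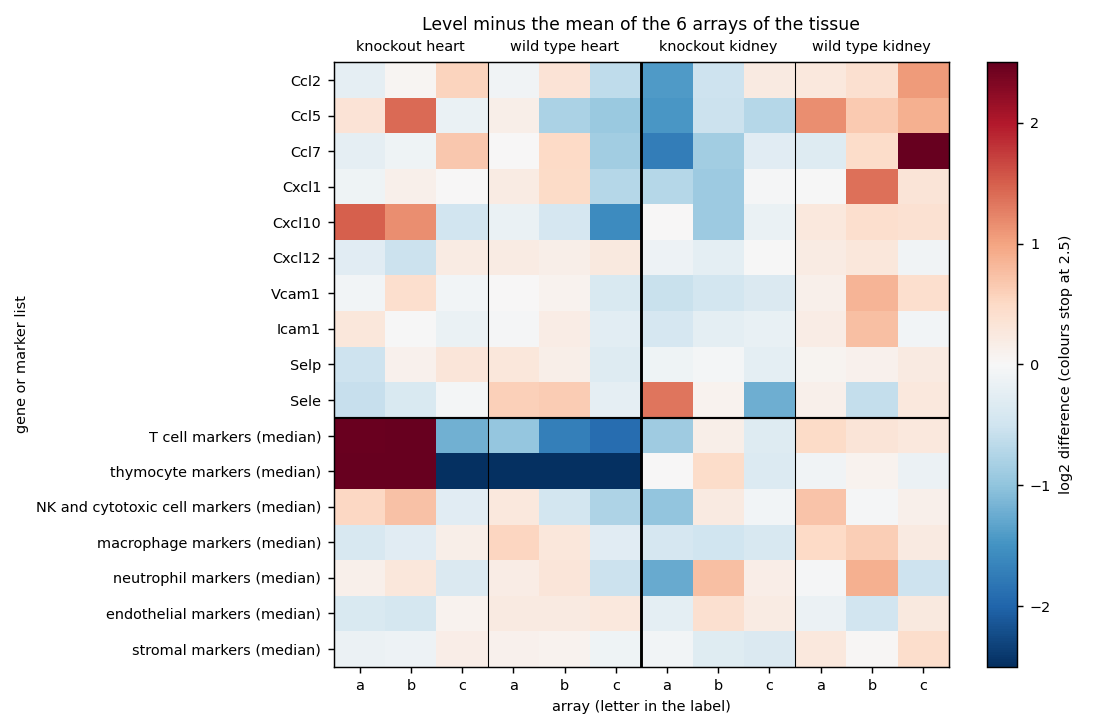
Colours give the level of each gene, and the median of each marker list below the line, on the 12 arrays minus the mean of the 6 arrays of the tissue, in log2 units. Columns are arrays by group and letter. Knockout kidneys are blue for most of the 10 genes, Ccl5 is highest in knockout heart b and Cxcl10 in knockout heart a, and T cell and thymocyte markers are far above the tissue mean only on knockout hearts a and b.

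In heart, none of the 10 genes was called, against 0.664% of all genes tested there (116, or 55 with the letter of the sample as a replicate block, which also called none of the 10), and for each of the 10 the knockout and wild type arrays overlapped. Of all genes 13% had every knockout heart below every wild type heart and 9.14% every knockout heart above. At an unadjusted p under 0.05 there were 2 of the 10, Cxcl10 and Sele, and 2743 of 17481 genes. Means were higher in knockout heart for 7 genes and lower for 3, with a median of 0.13.

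Cxcl10 and Ccl5 had the largest heart differences and the widest spread. Cxcl10 was at -0.39, -0.72 and -2.34 in knockout hearts a, b and c and at -2.05, -2.29 and -3.45 in wild type hearts. Knockout hearts a and b stood above all wild type hearts and knockout heart c lay among them. The difference was 1.45 ± 0.60 (adjusted p = 0.318 by limma), 0.25 when only knockout heart c was set against the wild type hearts, and 2.04 without knockout heart c (adjusted p = 0.0416). Without knockout heart c, 1979 of 17481 genes were called, against 116 in the main fit. Ccl5 was at 3.03, 4.11 and 2.53 in knockout hearts and 2.84, 1.91 and 1.77 in wild type hearts, with knockout heart b highest. It differed by 1.05 ± 0.47 (adjusted p = 0.330 by limma), and by 0.35 with knockout heart c alone. The highest values of both genes were on knockout hearts a and b, which carried T cell and thymocyte markers and Xist signal, and a also lung markers. For Ccl5 only knockout heart b stood clearly apart, since knockout heart a (3.03) lay near wild type heart a (2.84). On knockout hearts a and b all 8 thymocyte markers were well above background and their summed level was 79.8 and 144, against at most 5.42 on the other heart arrays. Cd2 (2.74 ± 0.95), Cd8a (5.37 ± 1.87), Dntt (8.03 ± 2.54) and Tcf7 (4.62 ± 1.79) were the markers with the smallest p and were not called. NK and cytotoxic cell markers were higher for 6 of 6, with summed levels of 1.48 to 5.57 in knockout and 0.886 to 1.94 in wild type hearts. The part of these cells in the Cxcl10 and Ccl5 levels was not tested.

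The adhesion molecules and the other chemokines showed small differences in heart. Sele was at -4.65, -4.47 and -4.14 in knockout hearts and -3.49, -3.45 and -4.30 in wild type hearts, overlapping through wild type heart c (-0.67 ± 0.27, adjusted p = 0.314 by limma). Selp was at -2.49, -1.88 and -1.69 against -1.70, -1.83 and -2.30, with an interval of -0.72 to 0.56. Icam1 was at 3.32, 3.03 and 2.88 against 3.00, 3.23 and 2.78, with an interval of -0.38 to 0.52. Vcam1 was at 2.31, 2.81 and 2.33 against 2.40, 2.48 and 2.002 on the brighter probe (0.19 ± 0.21). On the second probe it was at 0.24, 0.72 and 0.75 against 1.29, 1.31 and 0.65, with the opposite sign (-0.51 ± 0.24), and both probes overlapped between the groups.

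Ccl2 was at 1.33, 1.62 and 2.12 in knockout hearts and 1.47, 1.90 and 0.92 in wild type hearts (0.26 ± 0.31), and Ccl7 at -0.30, -0.17 and 0.60 against -0.06, 0.43 and -0.94 (0.23 ± 0.40). The groups overlapped broadly for both genes. Cxcl1 was at -3.96, -3.71 and -3.84 against -3.63, -3.37 and -4.55 (0.02 ± 0.31, interval -0.73 to 0.76), and its sign turned with normexp background correction, median scaling and quantile scaling. Cxcl12 variant 2 was at 5.49, 5.24 and 5.97 against 5.98, 5.92 and 6.01 (-0.41 ± 0.20), lower on knockout hearts a and b alone. Its variant 1 probe was at -1.30, -1.72 and -1.38 against -2.01, -1.85 and -2.55, with all knockout hearts above all wild type hearts (0.67 ± 0.22, adjusted p = 0.262 over probes, limma).

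**Figure D4:**
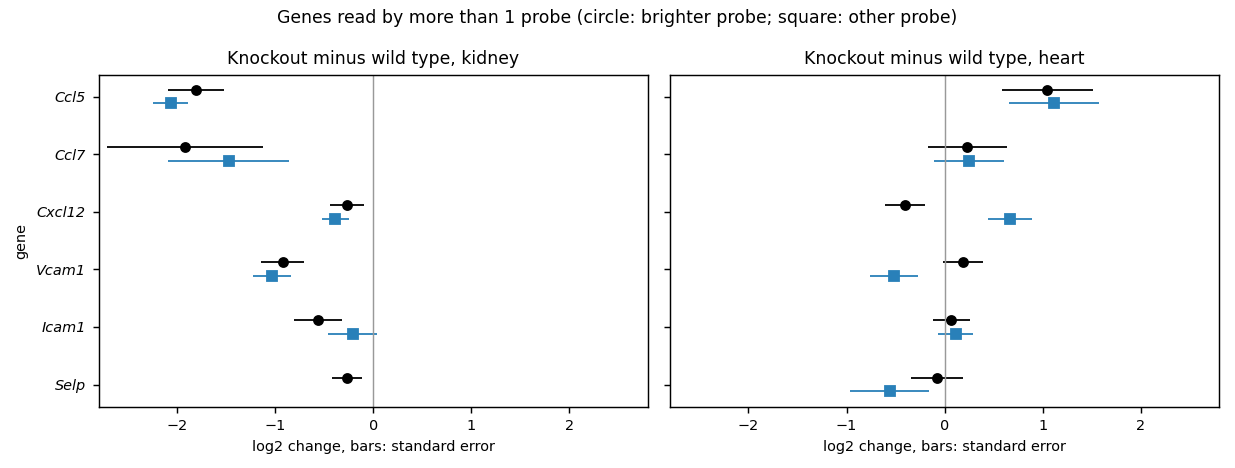
Genes with more than 1 probe above background are plotted with the log2 change, knockout minus wild type, of the brighter probe (circle) and of the other probe (square) in kidney (left) and heart (right), with bars of 1 SE. In kidney both probes of Ccl5, Ccl7, Cxcl12, Vcam1 and Icam1 lie below 0, and in heart those of Cxcl12 (-0.41 and 0.67) and Vcam1 (0.19 and -0.51) lie on opposite sides.

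The rest of the system in heart was read the same way. Of 23 other chemokines 11 had a higher and 12 a lower mean in knockout heart, with Cxcl9 (1.55 ± 0.37) and Xcl1 (1.85 ± 0.53) in front, both without overlap and not called. Of 18 receptors 12 had a higher mean, and the smallest p belonged to Cx3cr1 (-1.47 ± 0.32) and Ccr6 (1.29 ± 0.35). Of 14 leukocyte partners 12 had a higher mean, among them Itgb2 (0.83 ± 0.27). Of 15 other endothelial adhesion molecules 13 had a lower mean, 6 without overlap, such as Cdh5 (-0.49 ± 0.18), while the mean of Glycam1 was higher (6.52 ± 1.54). Glycam1 was well above background on no wild type heart, so the size of its difference rests on signal near background. Nfkb1 (0.99 ± 0.31) and Ltb (1.98 ± 0.75) had the smallest p among upstream genes. None of these was called. Endothelial markers were lower for 10 of 10 (median -0.39, 5 without overlap) and macrophage markers for 12 of 12 (median -0.36), with 0 called. Their summed levels in knockout and wild type hearts were 97.6 to 142 against 148 to 150.4 and 104 to 142 against 143 to 159. Liver markers were called higher in knockout heart for 7 of 7, from a median of -2.40 to -1.86 against -7.31 to -5.37, led by Fabp1 (4.05 ± 0.33). The part of any of these in the heart values was not tested.

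The difference of the heart change from the kidney change was tested directly over the 12 arrays. Of the 10 genes 0 were called, against 0.635% of all genes. At an unadjusted p under 0.05 there were 4 of the 10 (Ccl5, Vcam1, Cxcl10 and Ccl2), and 2689 of 18437 genes. The difference was 2.85 ± 0.59 for Ccl5 (adjusted p = 0.0738 by limma), 2.15 ± 0.71 for Cxcl10 (adjusted p = 0.220) and 1.11 ± 0.31 for Vcam1 (adjusted p = 0.168), all with the heart change above the kidney change. The second Ccl5 probe gave 3.18 ± 0.54 and was called (adjusted p = 0.0382 over probes, limma). The second Vcam1 probe gave a smaller difference, 0.52 ± 0.32, and was not called (adjusted p = 0.466 over probes, limma). Of the 9 genes tested in kidney 8 had this sign, with Cxcl12 (-0.14 ± 0.27) as the exception, and Sele is not counted since its kidney level is near background. Over all genes tested, 47.6% had the heart change below the kidney change. Ccl5 was called without knockout heart c (3.20, adjusted p = 0.00893) and without wild type heart a (3.18, adjusted p = 0.0398), and Cxcl10 without knockout heart c (2.75, adjusted p = 0.0156). Over all genes, 1251 of 18437 were called without knockout heart c and 160 without wild type heart a, against 117 in the main fit. Without knockout heart c, the knockout hearts left were a and b, which carried T cell and thymocyte markers and Xist signal. Without knockout hearts a and b and knockout kidney a, which leaves 1 knockout heart that is assumed to vary like the other groups, the differences were 1.88 for Ccl5 (adjusted p = 0.241) and 1.14 for Cxcl10 (adjusted p = 0.597).

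Heart and kidney were compared in wild type mice alone. No slide held both wild type hearts and wild type kidneys, so that the slide cannot be told apart from the tissue in this comparison. Of the 10 genes, 8 were called between wild type heart and wild type kidney, 7 of them higher in heart and only Cxcl10 higher in kidney. This comparison called 64.5% of all genes tested, so 8 of 10 is a share not far from that of genes in general. By direction, 6150 of 17983 genes were called higher in wild type heart and 5452 lower. The 7 of 10 called higher are a larger share than that of all genes. Selp was at -1.70, -1.83 and -2.30 in wild type hearts and at -5.18, -5.14 and -5.03 in wild type kidneys. The groups were far apart, by 3.18 ± 0.19 (SE), or 9.04-fold, with an adjusted p of 5.19e-06 by limma. Its second probe was not well above background in any kidney and gave a bound of at least 4.44-fold. Sele was at -3.49, -3.45 and -4.30 in wild type hearts. No wild type kidney was well above background for Sele, which gave at least 7.08-fold more in heart (fitted difference with an adjusted p of 3.19e-05 by limma, group means of -3.75 and -7.52). Such a bound takes, on each dim array, the higher of the probe's own value and the lowest signal among probes well above background.

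Ccl7 had the largest fitted difference between the tissues among the 10 genes, and Ccl2 also lay higher in heart. Ccl7 was at -0.06, 0.43 and -0.94 in wild type hearts and at -5.36, -4.58 and -2.30 in wild type kidneys. The difference was 3.89 ± 0.76 (14.8-fold, adjusted p = 0.00306 by limma), and wild type kidney c lay well above the other wild type kidneys. Ccl2 was at 1.47, 1.90 and 0.92 in wild type hearts and at -1.41, -1.29 and -0.62 in wild type kidneys, without overlap. It differed by 2.54 ± 0.31 (5.81-fold, adjusted p = 0.000239 by limma). Vcam1, Ccl5 and Icam1 were higher in wild type heart by 1.73 ± 0.23, 1.16 ± 0.30 and 1.11 ± 0.24, with adjusted p of 0.000397, 0.0113 and 0.00484 by limma.

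Cxcl10 was called in the other direction. It was at -2.05, -2.29 and -3.45 in wild type hearts and at -0.74, -0.57 and -0.61 in wild type kidneys, a group that hardly varied. The kidney level was 3.88-fold that of heart (heart minus kidney -1.96 ± 0.35, adjusted p = 0.00189 by limma). Cxcl1 was at -3.63, -3.37 and -4.55 in wild type hearts and -5.47, -4.08 and -5.14 in wild type kidneys, so the groups overlapped. Its difference of 1.05 ± 0.43 did not pass (adjusted p = 0.0674 by limma) and passed without wild type heart c (1.40, adjusted p = 0.0316) or without wild type kidney b (1.46, adjusted p = 0.0168). Markers of several cell types moved with tissue: 10 of 10 endothelial, 8 of 8 stromal and 11 of 12 macrophage markers were called higher in wild type heart, against 6150 of 17983 genes tested. Their part in the result was not tested. In whole-organ RNA, fewer cells of a type and less RNA per cell cannot be told apart.

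Cxcl12 gave opposite tissue differences on the probes of its transcript variants. The variant 2 probe was at 5.98, 5.92 and 6.01 in wild type hearts and 5.73, 5.81 and 5.44 in wild type kidneys, a difference of 0.31 ± 0.15 (adjusted p = 0.104 by limma). The variant 1 probe was at -2.01, -1.85 and -2.55 in wild type hearts and at -0.37, -0.34 and -0.32 in wild type kidneys. It was called lower in heart (-1.79 ± 0.20, adjusted p = 0.000200 over probes, limma).

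The other genes of the system mostly showed higher levels in wild type heart too. Over all genes tested, 6150 of 17983 were called higher in wild type heart and 5452 lower. Of 23 other chemokines tested, 13 were called higher in wild type heart and 5 lower, with Ppbp (4.30 ± 0.24), Pf4 (3.96 ± 0.23), Ccl24 (4.11 ± 0.24) and Ccl12 (3.75 ± 0.28) among the former. Ccl28 (-6.24 ± 0.32), Ccl19 (-2.42 ± 0.20), Ccl25 (-1.75 ± 0.17) and Cxcl11 (-1.99 ± 0.20) were called higher in wild type kidney. Cxcl11, like Cxcl10, is a ligand of Cxcr3. Of 18 chemokine receptors, 12 were called higher in heart, including the scavenging receptors Ackr4 (6.14 ± 0.34) and Ackr2 (2.73 ± 0.19) and the Cxcl12 receptor Cxcr4 (2.18 ± 0.13), and 1, Ccr9, lower (-1.19 ± 0.30). Ackr4 was well above background on no wild type kidney, so the size of its difference rests on signal near background. Of 14 other endothelial adhesion molecules, 10 were called higher in heart, led by Jam2 (5.37 ± 0.13), Cdh5 (3.00 ± 0.13), Cd34 (2.86 ± 0.13) and Icam2 (2.68 ± 0.13), and Alcam (-2.34 ± 0.19) was called lower. Of the 14 leukocyte partners of the adhesion molecules, 11 were called higher in heart, among them Cd44 (2.84 ± 0.21), the Icam1-binding integrin chains Itgb2 (1.99 ± 0.18) and Itgal (1.74 ± 0.18) and the selectin ligand Selplg (1.89 ± 0.22). Only Glg1 was called lower (-0.87 ± 0.26). Of 16 upstream cytokines and regulators, 12 were called higher and 0 lower, with Tnfrsf1b (2.25 ± 0.14), Il1r1 (2.11 ± 0.14), Irf1 (1.62 ± 0.14) and Relb (1.79 ± 0.16) in front.

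On the probe used for each gene, the order of the 4 group means was the same for Ccl2, Ccl5, Ccl7, Cxcl1, Vcam1 and Icam1: knockout heart, wild type heart, wild type kidney, knockout kidney. For Ccl2, Ccl7, Cxcl1, Vcam1 and Icam1 the knockout and wild type heart means differed by less than the SD of either group, and for Ccl5 they differed by more than both. On the second Vcam1 probe wild type heart (1.08 ± 0.37, SD, n = 3) led knockout heart (0.57 ± 0.29) by more than either SD. For Selp and Sele wild type heart led, ahead of knockout heart by less than the SD of either group for Selp. For Cxcl12 variant 2 the order was wild type heart (5.97 ± 0.045, SD, n = 3), wild type kidney (5.66 ± 0.20), knockout heart (5.56 ± 0.37) and knockout kidney (5.39 ± 0.12), where only the first differed from its neighbour by more than both SDs. For Cxcl10 the order was wild type kidney (-0.64 ± 0.088, SD, n = 3), knockout heart (-1.15 ± 1.05), knockout kidney (-1.34 ± 0.49) and wild type heart (-2.60 ± 0.75), where the middle groups differed by less than their spread.

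Genes whose levels followed each member most closely were found by the root mean square difference of tissue-centred log2 levels over the 12 arrays, among 15545 genes. This is a description of these 12 arrays. Ccl5 was followed by Cxcr3 (0.26), Nkg7 (0.31) and Spic (0.34), against its own variation of 0.87. Ccl2 was followed by Gapt (0.24), Btk (0.33) and Pilrb2 (0.33), against 0.62, and Ccl7 by Lat2 (0.52), Slitrk4 (0.55) and Il1rl1 (0.55), against 1.05. Vcam1 was followed by St8sia4 (0.12), Sp110 (0.15) and Psmb9 (0.15), against 0.40, and Icam1 by Dync2h1 (0.099), Mphosph6 (0.11) and Sh3rf3 (0.12), against 0.30. For Cxcl1 these were Clec4a2 (0.29), Kcnt2 (0.29) and Vcam1 (0.29) against 0.59, and for Cxcl10 Mastl (0.35), Klk1 (0.35) and Traf1 (0.35) against 0.80. For Cxcl12 they were Nkiras1 (0.070), Cops7a (0.080) and Nt5c3 (0.083) against 0.25, for Selp Rhoj, Hrh1 and Dsel (0.12 each) against 0.24, and for Sele Map7d2 (0.21), Fgl2 (0.28) and Pcolce2 (0.29) against 0.65.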

How the data were processed

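Intensity per spot, after background subtraction, was read from the deposited scanner files. Per the file headers the software was Agilent Feature Extraction 9.5.3.1, and 9.1 per the submitters' processing notes. The deposited value table holds log2 values, which were found to be centred per probe within a tissue. Each of its columns follows the array of the other genotype with the same letter (correlation of at least 0.99988 over probes), so directions here rest on the labels of the scanner files, where Slc29a1 is lower on knockout arrays; with the table's labels every change within a tissue would turn.

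From the intensity, log2 values were taken relative to the 75th percentile of each array, spots flagged as non-uniform or outliers were left out, and spots of a probe were averaged (10 spots for Ccl2, Icam1 and Selp). A gene was tested where 1 group or more had its probe well above background on each of 3 arrays, with the brightest probe standing for the gene. Tests used limma 3.58.1 in R 4.3.3 with Benjamini-Hochberg adjustment over all genes, for knockout against wild type in each tissue, the difference of both changes, and wild type heart against wild type kidney. The fits were tested on simulated data. Samples of the same letter deviated together in heart (correlations 0.39, 0.19 and 0.26). The main fits did not pair samples by letter, and the letter entered as a replicate block only in an alternative. The number of arrays limits the precision.

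The rule for the members uses no measured value, but members and lists were chosen with earlier results of these data known. The naming rule gives all 10 members everywhere, up to 4 called genes per direction of each other list or else the 2 with the smallest p, and the 3 most alike genes per member; 2 genes that it names are not reported here. Of the probes, 22951 were named by accession, 6659 by symbol and 3109 by synonym, and 8455 kept the file's name. Probe positions are in mm7, promoters in GRCm38.p6.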

Additional observations from a re-analysis of the deposited data

Results flagged for a closer look

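On the second Ccl5 probe (A_51_P485312) the knockout change differed between heart and kidney by 3.18 ± 0.54 (adjusted p = 0.0382 over probes, limma). Its 3 knockout kidneys lay below its 3 wild type kidneys, and its hearts overlapped.

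On the Cxcl12 variant 1 probe (A_52_P685021) every knockout heart lay above every wild type heart and every knockout kidney below every wild type kidney. The difference between the changes was 1.05 ± 0.27 and did not pass the threshold (adjusted p = 0.133 over probes, limma). The variant 2 probe did not show this pattern. Before scaling, the groups of the variant 1 probe overlapped in both tissues. Knockout heart b was at 199 and wild type heart b at 219, and knockout kidney a was at 491 and wild type kidney b at 356.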

How the results depend on the processing

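Of the 8 genes called between wild type heart and wild type kidney, 7 were called in all 18 alternatives run and Sele in the 17 that tested it. None of these alternatives, slide as a random block included, can separate tissue from slide, since no slide held wild type arrays of both tissues. Of the 10 genes 1 was called in knockout kidney, Ccl5 in each case, with median scaling, every probe tested (through its second probe), the mean of the probes of a gene, trend and robust variances, only arrays without Xist signal (in kidney the same fit as without knockout kidney a), within the slide that holds both genotypes and with slide as a random block (1 each). Leaving out 1 array gave 0 to 1 called in kidney, 0 to 1 in heart and 0 to 2 for the difference, where every probe tested and the mean of the probes gave 1. The count of genes without overlap in kidney was 4 with normexp background and 7 to 9 with 1 array left out, against 14.9% to 23.2% of all genes. With a replicate block (letter), 0 of the 10 were called in heart, 0 in kidney, 0 for the difference and 9 between tissues, where Cxcl1 was added. Letters did not pair the kidneys (correlations 0.10, -0.01 and -0.15), where the block left 2 of 28 calls over all genes.

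Signs turned in heart for Cxcl1 with normexp background (-0.041), median scaling (-0.15) and quantile scaling (-0.16), for Icam1 with median scaling (-0.094) and without arrays with Xist signal (-0.13), for Selp without those arrays (0.25), and for Cxcl12 (0.13) and Vcam1 (-0.16) with the mean of the probes. With 1 array left out, heart changes ran from -0.14 to 0.54 (Ccl7), -0.33 to 0.26 (Cxcl1), -0.055 to 0.18 (Icam1) and -0.26 to 0.16 (Selp). In kidney normexp background turned Ccl7 (0.13), Cxcl1 (0.55), Selp (0.69) and Lta (0.31). For the difference it turned Cxcl1 (-0.59), Cxcl12 (0.18) and Selp (-0.77). Selp also turned with median scaling (-0.024), quantile scaling (-0.0069) and the mean of the probes (-0.23), Cxcl12 with the mean of the probes (0.46) and without arrays with Xist signal (0.26), and Sele without those arrays (0.12). Cxcl12 ran from -0.34 to 0.022 with 1 array left out, and between tissues turned with the mean of the probes (-0.74). The cause was not tested, except that the mean of the probes joins probes of opposite sign. None of these turned values was called but the last.

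Calls over all genes ranged from 17 to 1979 in heart, 0 to 287 in kidney, 0 to 1251 for the difference and 9768 to 16583 between tissues. Median scaling moved the median change of all genes in heart from -0.07 to -0.23. Not run were slide as a block in heart, the value table and the Xist restriction between tissues, and the fit of 12 arrays for the difference, which is the main one. Signal near background limits Sele and Lta in kidney and the second Selp probe. The brighter Selp probe and the Cxcl1 probe were well above background in kidney but dim. Their kidney intensities before scaling were 12.8 to 23.6 and 8.48 to 26.6. The brighter Ccl7 probe was at 7.30 to 18.9 there, except for 156 in wild type kidney c. Before scaling, the kidney groups of Selp, Ccl2, Cxcl10, the Cxcl12 variant 1 probe and the second Ccl7 probe overlapped. So did the heart groups of the Cxcl12 variant 1 probe.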
